A study of Mus musculus with 121 samples.

Results

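The genes described here are the D-type cyclins Ccnd1, Ccnd2 and Ccnd3, the cyclin-dependent kinases Cdk2, Cdk4 and Cdk6, and the kinase inhibitors Cdkn1a (p21), Cdkn1b (p27), Cdkn2c (p18) and Cdkn2d (p19). They were taken by symbol, and all 10 are among the 23946 genes of the expression table. Their transcripts were measured in single bone marrow cells of C57BL/6 mice labelled Gfi1-R412X/- (HTZ in the titles), a genotype that every cell shares. Marrow cells enriched on CD117 beads were sorted into 75 cells labelled GMP and 46 labelled CD11b+ GMP-P, then captured on the Fluidigm C1 system. Age, sex and the number of mice are not in the labels, and cells with unmutated Gfi1 were not analysed here, so nothing below measures an effect of the mutation.

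D-type cyclins bind CDK4 or CDK6 in G1, and the active kinases phosphorylate the retinoblastoma protein and so free E2F factors to switch on S phase genes. CDK2, with E and A cyclins, continues that phosphorylation. Cdkn2c and Cdkn2d encode INK4 proteins that bind CDK4 and CDK6, while Cdkn1a and Cdkn1b encode CIP/KIP proteins that block cyclin-CDK2 complexes. Granulocyte precursors divide several times and then leave the cell cycle for good while they fill with granules.

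The authors gave each cell 1 of 12 state names, which are used as deposited and not expanded. States of 5 or more cells are cMoP (5 cells), MP (11), Mono (38), Gran-1 (14), Gran-2 (15), Myelo-1 (5), Myelo-2 (18) and Myelo-4 (10). Values are log2(TPM + 1), where TPM is a length-scaled transcript abundance that sums to the same total in every cell, and detection means a TPM of at least 1. No animal is named, so a population or state is 1 sample, no test was possible, and ± gives the SD over cells, a spread of cells and not an error of replicates. Brackets after a share hold its exact Clopper-Pearson 95% interval, for counting error only.

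The run names in the labels divide the cells into 46 CD11b+ GMP-P cells, 13 late July GMP cells and 62 GMP cells of an undated run. The late July cells carry 2 run names, of 10 and 3 cells, and are treated as 1 run here. The digits of the CD11b+ GMP-P run name can be read as the same day in late July, and the labels do not say whether these cells shared a capture. Transcripts of Itgam, the CD11b gene, were found in 35 of 46 CD11b+ GMP-P cells and in 5 of 62 cells of the undated run, but also in 11 of the 13 late July cells labelled GMP. Those 13 cells stand in the Gran-1, Gran-2, Myelo-2 and Myelo-4 states, and comparisons that rest on them are given with and without them, while levels by state pool the runs. All cMoP and MP cells came from the undated run and all Myelo-1 cells from CD11b+ GMP-P, so state and run cannot be told apart there. Fewer genes were detected in the later states, with medians of 4455 in MP, 4657 in Mono, 3760 in Gran-2, 2448.5 in Myelo-2 and 1685.5 in Myelo-4. The share of TPM in the 20 most abundant genes had a median of 16.8% in MP and 65.2% in Myelo-4, so the other genes share a smaller remainder in the late states. The part of either measure in the results was not tested.

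The start regions of Cdk4, Cdk6 and Ccnd3 are shown because their levels differed in the late states: Cdk4 and Cdk6 transcripts were few there and those of Ccnd3 were not. Each sequence is the 250 bases before the RefSeq start on GRCm38.p6, plus strand, at chr10:127063285-127063534 (Cdk4), chr5:3343643-3343892 (Cdk6), chr17:47504801-47505050 (Ccnd3, upstream start) and chr17:47593217-47593466 (Ccnd3, downstream start). Capitals mark the E-box CACGTG and the E2F motif TTTNNCGC, searched on both strands.
Cdk4: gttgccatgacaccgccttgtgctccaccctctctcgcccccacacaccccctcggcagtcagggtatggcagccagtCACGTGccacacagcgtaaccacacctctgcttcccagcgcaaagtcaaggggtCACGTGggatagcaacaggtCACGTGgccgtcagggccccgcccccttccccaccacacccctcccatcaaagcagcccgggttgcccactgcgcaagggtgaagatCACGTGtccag
Cdk6: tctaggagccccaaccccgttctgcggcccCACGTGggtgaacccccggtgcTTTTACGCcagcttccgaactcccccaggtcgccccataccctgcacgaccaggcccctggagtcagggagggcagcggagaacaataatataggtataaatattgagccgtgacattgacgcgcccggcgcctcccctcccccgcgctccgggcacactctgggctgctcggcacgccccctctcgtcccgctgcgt
Ccnd3 upstream start: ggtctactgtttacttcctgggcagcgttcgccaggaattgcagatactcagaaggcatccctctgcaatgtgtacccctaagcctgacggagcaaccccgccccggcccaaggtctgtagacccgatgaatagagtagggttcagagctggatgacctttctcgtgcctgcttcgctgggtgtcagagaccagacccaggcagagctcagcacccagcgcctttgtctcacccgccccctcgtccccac
Ccnd3 downstream start: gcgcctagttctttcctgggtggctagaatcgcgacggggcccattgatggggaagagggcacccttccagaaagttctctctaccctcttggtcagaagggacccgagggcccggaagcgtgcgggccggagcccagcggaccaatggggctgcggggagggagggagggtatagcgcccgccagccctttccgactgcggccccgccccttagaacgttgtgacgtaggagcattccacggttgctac
The Cdk4 region holds 4 E-boxes, which begin 172, 118, 98 and 11 bases before the start. In windows of 300 bases (250 before to 50 after the start), 7.15% of 32851 mouse promoters hold at least 1 E-box, and 8 promoters hold 4 or more. The Cdk6 region holds 1 E-box and 1 E2F motif, which begin 220 and 198 bases before the start and do not overlap, and 5.17% of promoters hold that E2F motif. Neither Ccnd3 region holds either motif. Of the windows not shown, that of Cdk2 holds an E2F motif that begins 140 bases before the start. A Cdkn2c window holds an E-box that begins 34 bases after its start. A link between these motifs and the levels was not tested. CACGTG is the string bound by MYC with its partner MAX, and Cdk4 is a described MYC target, which is background to the letters and no measurement of binding. Windows for 8 of the 10 genes were in the table, with Ccnd1 and Ccnd2 not matched.

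Among D cyclins, Ccnd2 prevailed in more cells of MP than Ccnd3 did, and Ccnd3 was nearly the sole D cyclin transcript from Myelo-1 onward. In Gran-2 Ccnd2 was still detected in 5 of 15 cells, in 1 of them without Ccnd3. Ccnd2 had a mean level of 4.19 ± 2.74 in MP, 3.63 ± 2.09 in Gran-1, 2.82 ± 2.54 in Mono, 2.30 ± 2.86 in cMoP and 1.38 ± 2.30 in Gran-2. It then stood at 0.27 ± 0.59 in Myelo-1, 0.20 ± 0.59 in Myelo-2 and 0.05 ± 0.13 in Myelo-4. Every step between neighbours in that order was smaller than the spread over cells. Steps between states sorted by mean are small by construction, here and below. The ends of the order, 4.19 in MP and 0.05 in Myelo-4, lay further apart than any SD given for Ccnd2. Ccnd2 was detected in 9 of 11 MP cells (81.8%, 48.2 to 97.7), 11 of 14 Gran-1 cells (78.6%, 49.2 to 95.3) and 1 of 18 Myelo-2 cells (5.56%, 0.141 to 27.3). In Myelo-4 it was detected in 0 of 10 cells; this allows a share of up to 30%.

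With runs pooled, Ccnd3 ran the other way, with its 4 highest state means in Myelo-1 (6.73 ± 4.19), Myelo-4 (6.38 ± 3.19), Gran-2 (5.87 ± 3.13) and Myelo-2 (5.39 ± 3.17). Its means were 4.74 ± 2.52 in MP, 4.47 ± 3.06 in cMoP, 3.17 ± 2.96 in Mono and 3.09 ± 2.87 in Gran-1, again with no step beyond the spread over cells. This order depended on the pooling. In Myelo-2 the mean was 4.09 in CD11b+ GMP-P, below that of MP, and 7.43 in late July GMP. In Myelo-4 the 2 means were 7.17 and 4.53. The Gran-1 cells of the undated run alone had a mean of 4.14. Ccnd3 was detected in 9 of 10 Myelo-4 cells (90%, 55.5 to 99.7), where only 309 genes of the table were found in at least that many cells. By mean TPM it ranked 211 of all genes in Myelo-4 and 3046 in Gran-1. Ccnd1 was detected in 11 cells, up to a level of 7.16, and all were from the undated run, where they made up 17.7% (9.2 to 29.5) of the 62 cells. Of these, 7 were Mono, 2 MP, 1 cMoP and 1 Gran-1.

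TPM is per length, so D cyclins can be set side by side. Ccnd3 supplied 59.4% of summed D cyclin TPM in MP and Ccnd2 40.4%, yet Ccnd2 was the highest D cyclin in 7 of the 11 MP cells and its median share per cell was 60.1%. In Gran-1 the summed share of Ccnd3 was 65.3%, and each of Ccnd2 and Ccnd3 was highest in 6 of the 12 cells with a D cyclin. In Gran-2 the share of Ccnd3 was 93.5% and it was highest in 12 of 14 cells. It was the highest D cyclin in every Myelo-1, Myelo-2 and Myelo-4 cell that had any (4, 15 and 9 cells). Mean Ccnd3 itself was 84.1 TPM in MP, 43.8 in Gran-1, 188 in Gran-2, 169 in Myelo-2 and 344 in Myelo-4, with runs pooled. The last step had opposite directions by run: 87.6 TPM in Myelo-2 and 462 in Myelo-4 of CD11b+ GMP-P, but 296 and 70.03 TPM in late July GMP. Within Mono the D cyclins also differed by sort and run. Ccnd3 supplied 90.3% of summed D cyclin TPM in the 6 CD11b+ GMP-P cells and 53.6% in the 32 of the undated run. Ccnd2 was detected in 2 and 22 of these cells, and Ccnd1 in 0 and 7. Mean levels differed by -1.48 (Ccnd2), -1.02 (Ccnd1) and 0.85 (Ccnd3), CD11b+ GMP-P minus undated run.

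**Figure D1:**
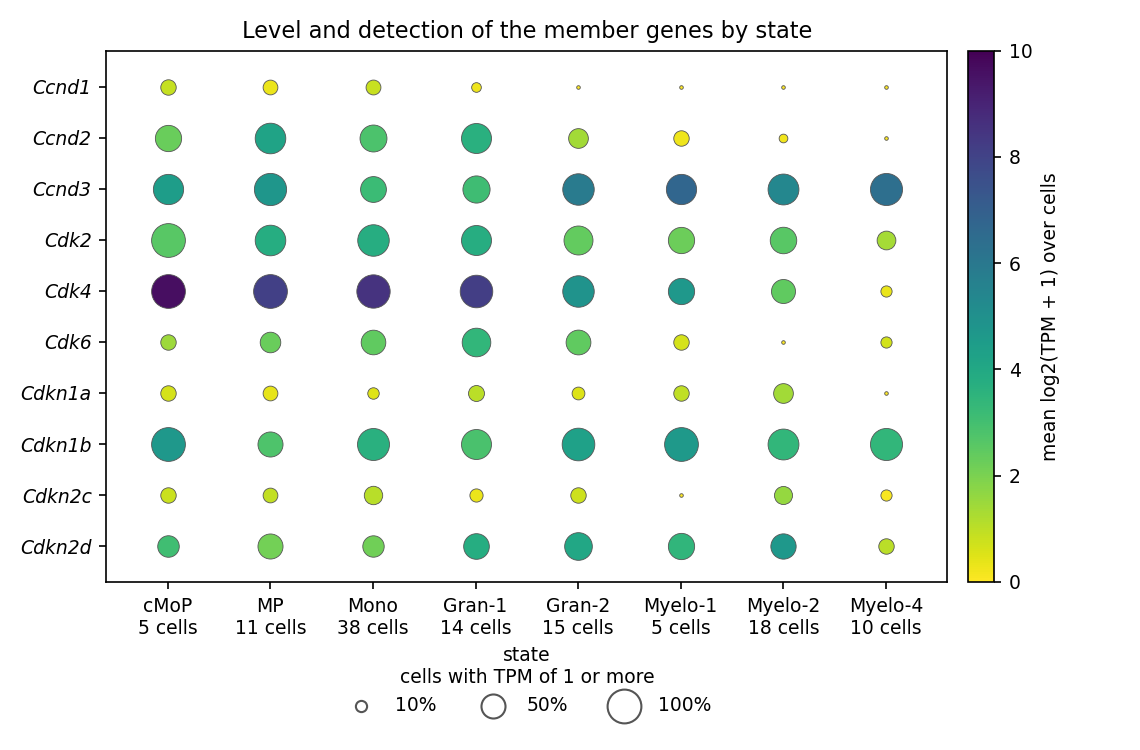
Circles give each gene (rows) in each state of 5 or more cells (columns); colour is the mean log2(TPM + 1) over cells and area grows with the percent of cells at a TPM of 1 or more. Cdk4 darkens to 9.61 in cMoP and fades to 0.33 in Myelo-4, while Ccnd3 and Cdkn1b circles stay large in Myelo-4, at 90% of cells each.

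Of the kinases, Cdk4 was by far the most abundant in the early states and rarely detected in Myelo-4. Its mean level was 9.61 ± 1.18 in cMoP, 8.52 ± 2.02 in Mono, 8.19 ± 2.69 in Gran-1 and 8.09 ± 1.66 in MP, which do not differ beyond their spread. It was 4.87 ± 3.11 in Gran-2, 4.67 ± 4.26 in Myelo-1, 2.45 ± 3.01 in Myelo-2 and 0.33 ± 0.79 in Myelo-4. The step from MP to Gran-2, 3.22, was the only 1 of 70 neighbouring steps over the 10 genes that passed the larger SD of its pair of states. All 11 MP cells came from the undated run and 13 of the 15 Gran-2 cells from CD11b+ GMP-P, so in that step state cannot be told apart from sort and run.

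Cells with Cdk4 numbered 11 of 11 in MP (100%, 71.5 to 100), 37 of 38 in Mono (97.4%, 86.2 to 99.9) and 13 of 14 in Gran-1 (92.9%, 66.1 to 99.8). They numbered 13 of 15 in Gran-2 (86.7%, 59.5 to 98.3), 9 of 18 in Myelo-2 (50%, 26 to 74) and 1 of 10 in Myelo-4 (10%, 0.253 to 44.5). Most Gran-2 cells thus still had Cdk4, at a mean of 127 TPM against 582 TPM in Gran-1 with runs pooled; 9 of the 14 Gran-1 cells were from the undated run. Within CD11b+ GMP-P the direction turned, with Cdk4 at a mean of 71.8 TPM in 3 Gran-1 cells and 146 TPM in 13 Gran-2 cells. The pooled mean was 35.1 TPM in Myelo-2 and 0.538 in Myelo-4. The single Myelo-3 cell had Cdk4 at 10.73 with only 967 genes detected.

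The 3 Gran-1 cells sorted as CD11b+ GMP-P had Cdk4 at 0, 5.89 and 7.30, all below the 9 Gran-1 cells of the undated run (lowest 7.62, median 9.10, highest 10.54). The 2 late July Gran-1 cells, at 9.05 and 10.41, lay among those of the undated run. In Mono, by contrast, the 6 CD11b+ GMP-P cells ran from 8.22 to 10.21 with a median of 9.20, close to the median of 8.97 in the 32 cells of the undated run. So within Mono the CD11b+ GMP-P cells were not low in Cdk4, though Ccnd2 was lower in them, as given above.

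Cdk6 was a minor transcript, with its highest mean in Gran-1 (3.42 ± 2.58), then Gran-2 (2.45 ± 2.88), Mono (2.44 ± 2.71), MP (2.28 ± 3.37) and cMoP (1.48 ± 3.32). The means in Myelo-4, Myelo-1 and Myelo-2 were 0.67 ± 2.13, 0.66 ± 1.47 and 0.05 ± 0.19. Cdk6 was detected in 10 of 14 Gran-1 cells (71.4%, 41.9 to 91.6) and 8 of 15 Gran-2 cells (53.3%, 26.6 to 78.7). In Myelo-2 it was detected in 0 of 18 cells; this allows a share of up to 16.7%. The Myelo-4 mean rests on 1 cell at 6.73. Cdk4 made up 96.8% of the summed Cdk4 and Cdk6 TPM in cMoP, 90.4% in MP, 94.7% in Mono and 95.2% in Gran-1. In Gran-2 its share was 77%, with a median per cell of 89.6%, and Cdk6 was the higher of the pair in 3 of 14 cells.

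Cdk2, the later-acting kinase, varied least among the kinases. Its means were 3.82 ± 2.54 in MP, 3.77 ± 2.51 in Mono, 3.76 ± 2.31 in Gran-1 and 2.58 ± 0.90 in cMoP. They were 2.61 ± 2.56 in Myelo-2, 2.39 ± 1.86 in Gran-2, 2.26 ± 2.91 in Myelo-1 and 1.34 ± 2.50 in Myelo-4. Cdk2 was thus detected in 11 of 18 Myelo-2 cells (61.1%, 35.7 to 82.7), against 9 with Cdk4 and none with Cdk6.

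**Figure D2:**
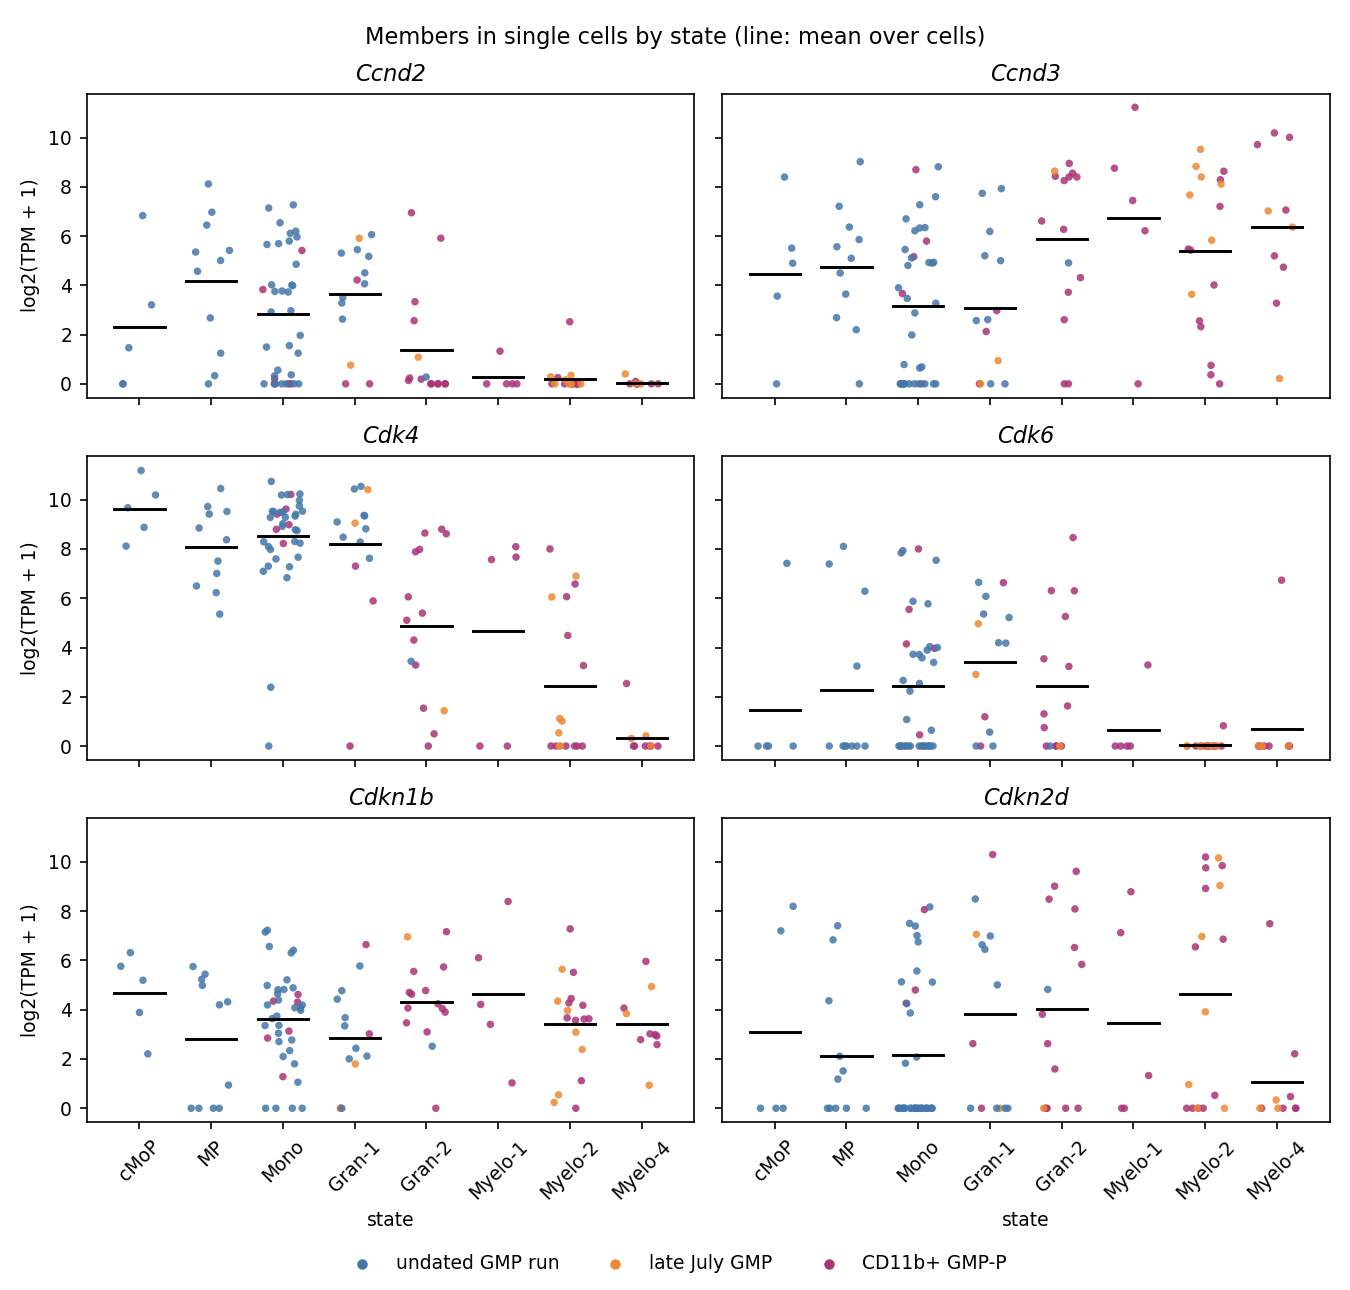
Each point is 1 cell's log2(TPM + 1) by state, coloured by run, and the black line is the mean over the cells of a state. Cdk4 cells crowd above 5 in MP and mostly at 0 in Myelo-4. Cdkn2d in Myelo-2 runs from cells at 0 to a cell at 10.20, with similar ranges in Gran-1 and Gran-2.

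Among inhibitors, Cdkn1b was found most widely, in 101 of all cells (83.5%, 75.6 to 89.6), and its means spanned only 2.81 to 4.67. In order they were 4.67 ± 1.65 in cMoP, 4.63 ± 2.78 in Myelo-1, 4.32 ± 1.76 in Gran-2, 3.64 ± 1.93 in Mono, 3.42 ± 1.95 in Myelo-2, 3.41 ± 1.38 in Myelo-4, 2.86 ± 2.09 in Gran-1 and 2.81 ± 2.56 in MP. No neighbours in that order differed beyond their spread. In Myelo-4 it was detected in 9 of 10 cells (90%, 55.5 to 99.7), as many as Ccnd3. The levels were low, and at a TPM of 10 or more only 28.6% of the 7 CD11b+ GMP-P cells of Myelo-4 had it, against 100% at a TPM of 1.

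Cdkn2d was the most abundant inhibitor by TPM and the most uneven between cells. Its means were 4.65 ± 4.38 in Myelo-2, 4.03 ± 3.70 in Gran-2, 3.83 ± 3.82 in Gran-1, 3.45 ± 4.19 in Myelo-1, 3.08 ± 4.23 in cMoP, 2.15 ± 2.97 in Mono, 2.13 ± 2.81 in MP and 1.05 ± 2.36 in Myelo-4. It took 84.1% of inhibitor TPM in Myelo-2, where its mean was 304 TPM and it was the highest inhibitor in 10 of 17 cells. In Myelo-4 it had 18.3 TPM, was detected in 2 of 10 cells (20%, 2.52 to 55.6), and Cdkn1b was the highest inhibitor in 8 of the 9 cells with any. In the 11 Myelo-2 cells of CD11b+ GMP-P, Cdkn2d was at 6.55, 6.86, 8.92, 9.76, 9.85 and 10.20 in 6 cells, and at 0.53 or 0 in the other 5. The 7 late July Myelo-2 cells spread likewise, at 0, 0, 0.96, 3.91, 6.97, 9.04 and 10.16. Myelo-2 therefore held cells at 0 and cells up to 10.20 and 10.16 in the 2 runs, with others between in late July. Gran-1 and Gran-2 also ranged from 0, up to 10.30 and 9.62 with runs pooled.

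Cdkn1a and Cdkn2c were rarely detected. Cdkn1a, a p53 target, was found in 21 of all cells (17.4%, 11.1 to 25.3), most often in Myelo-2 (6 of 18, 33.3%, 13.3 to 59), and in 0 of 10 Myelo-4 cells, which allows up to 30%. Cdkn2c was found in 26 of all cells (21.5%, 14.5 to 29.9), with means from 0 in Myelo-1 to 1.60 ± 2.69 in Myelo-2. In Myelo-2 it was higher in the 7 late July cells (mean 2.88 ± 3.48) than in the 11 CD11b+ GMP-P cells (0.78 ± 1.77), and both groups held cells at 0.

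**Figure D3:**
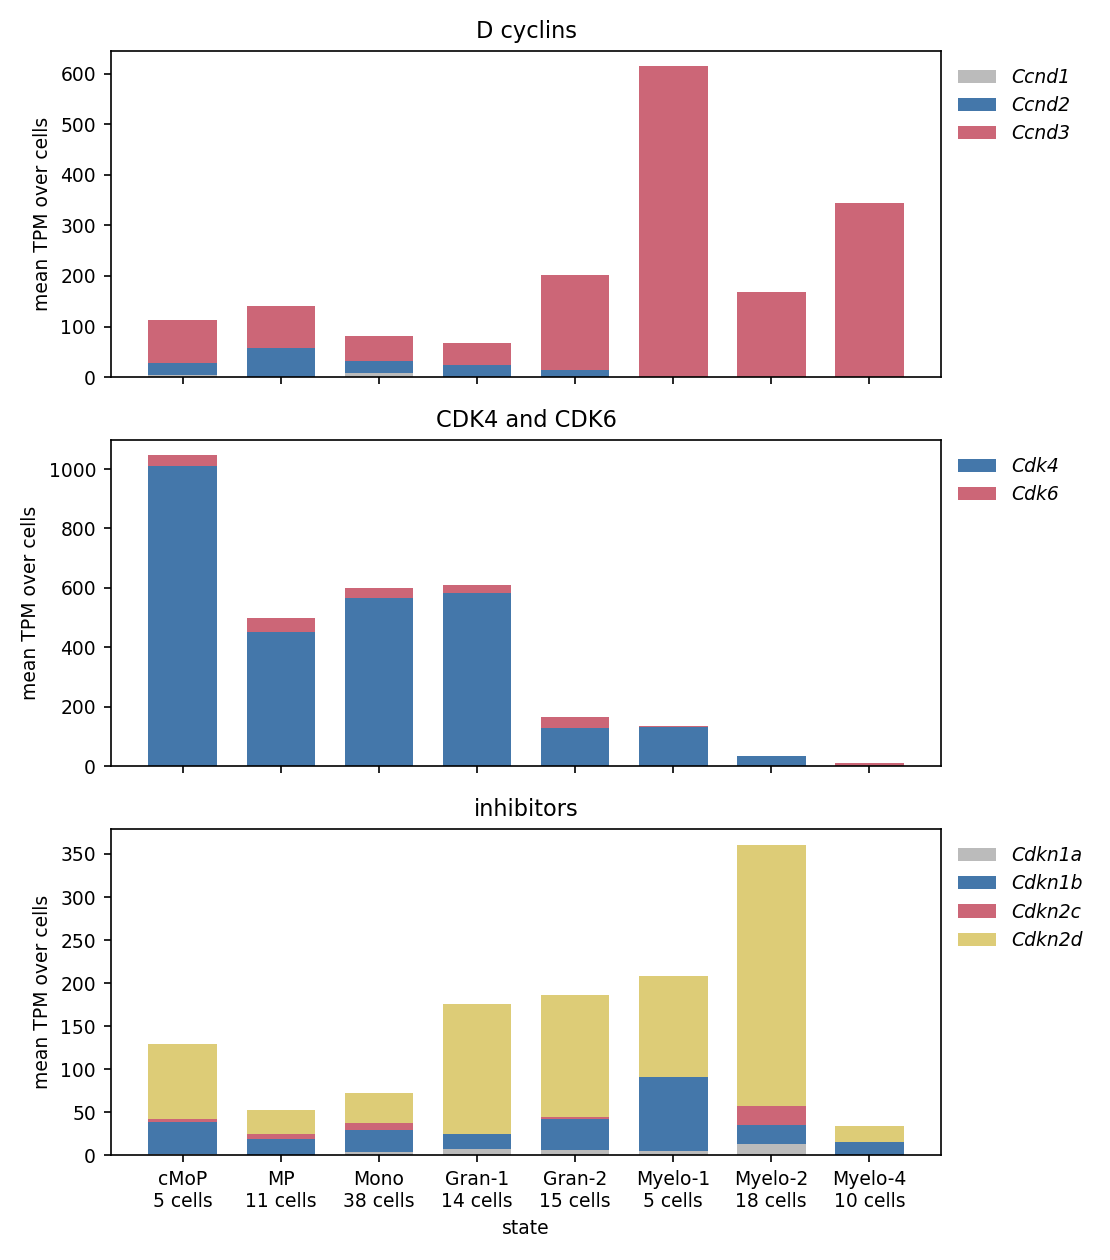
Stacked bars give the mean TPM over the cells of each state, runs pooled, for the D cyclins, for Cdk4 with Cdk6, and for the inhibitors, each on its own axis from 0. Summed D cyclin TPM is 344 in Myelo-4 and almost wholly Ccnd3, while summed Cdk4 and Cdk6 TPM is 611 in Gran-1, 35.2 in Myelo-2 and 11.1 in Myelo-4.

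The states were then compared within a run, on cells of 1 sort and run name, as differences of mean log2(TPM + 1). A gene was kept where 10% or more of the cells of 1 of the states had it, and called lower or higher at a difference of 1 or more, which is 2-fold on the TPM + 1 scale. These calls are descriptions of 1 sample against another.

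From MP to Gran-1 in the undated run (11 and 9 cells), 4 of 10 genes were higher and 0 lower, where 21.4% of all kept genes were higher and 9% lower. Their median difference was 0.31, beside 0.26 over all kept genes. Cdk4 was at 5.36, 8.38 and 10.46 (lowest, median and highest) in MP and at 7.62, 9.10 and 10.54 in Gran-1, a difference of 1.02 with overlapping cells. Cdk6 differed by 1.31, Cdkn1a by 1.2 and Cdkn2d by 1.60, each with cells at 0 in both states. By the log2 ratio of mean TPM instead, Cdk6 had the opposite sign, at -0.62. Ccnd2 (0.25), Ccnd3 (-0.60), Cdk2 (-0.38), Cdkn1b (0.37), Cdkn2c (-0.55) and Ccnd1 (0.12) stayed within 1.

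In the same run, Mono (32 cells) had 5 of 10 genes lower than Gran-1 (9 cells) and 0 higher, against 16.5% and 7.62% of all kept genes. The median over the 10 was -0.91, beside -0.14 over all kept genes. Ccnd2 was at 2.63, 4.51 and 6.06 (lowest, median, highest) in Gran-1, with no cell at 0, and at 0, 3.35 and 7.27 in Mono, a difference of -1.38. The Mono cells ranged past the Gran-1 cells at both ends, and by the ratio of mean TPM the difference was 0.012. Cdkn2d differed by -1.71, Cdk6 by -1.38, Cdkn1a by -1.19 and Ccnd3 by -1.10. On the ratio of mean TPM, 2 of the 10 genes were lower and 3 higher, and over all kept genes 17.8% were lower and 24.2% higher, so the direction of this comparison moved with the measure.

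At the later step, Myelo-2 (11 cells) against Gran-2 (13 cells) within CD11b+ GMP-P, both G1 kinases and both expressed D cyclins were lower while no inhibitor was. Of 9 kept genes 4 were lower and 0 higher, and of all kept genes 43.4% were lower and 5.29% higher, so the count is close to the background. The median was -0.50 over the 9 and -0.83 over all kept genes. Cdk4 was at 0, 5.40 and 8.80 (lowest, median, highest) in Gran-2 and at 0, 0 and 8.0 in Myelo-2, a difference of -2.66. Cdk6 was at 0, 1.63 and 8.46 in Gran-2, and the highest Myelo-2 cell was at 0.82, a difference of -2.75. Both kinases had Gran-2 cells at 0, so the states overlapped. Ccnd3 differed by -1.64 and Ccnd2 by -1.23, and with cells of all runs the difference of Ccnd3 was -0.48.

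The inhibitors stayed within 1 there, with differences of 0.51 for Cdkn2d, 0.43 for Cdkn1a, -0.12 for Cdkn2c and -0.50 for Cdkn1b, as did Cdk2 at -0.12. Ccnd1 was not kept, as no cell of either group had it. Of all kept genes 43.4% were lower and 5.29% higher in this comparison (median -0.83). S phase genes, a list of 20 with replication and nucleotide enzymes, were lower for 18 of 19 kept members (median -2.50). The late July Myelo-2 cells had higher levels of most of these genes. Pcna, the replication clamp, had mean levels of 6.52 in Gran-2 and 4.08 in Myelo-2 of CD11b+ GMP-P, but 6.56 in late July Myelo-2. For Mcm7, a subunit of the replicative helicase, they were 5.15, 1.29 and 6.40. Within Myelo-2, 12 of 19 kept S phase genes were lower and 2 higher in CD11b+ GMP-P than in late July cells, against 23.1% and 11.4% of all kept genes. From Gran-2 to Myelo-2 of CD11b+ GMP-P, genes of G2 and M phase were lower for 9 of 20 and higher for 1 (median -0.85). These values are close to the 43.4%, 5.29% and -0.83 of all kept genes.

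**Figure D4:**
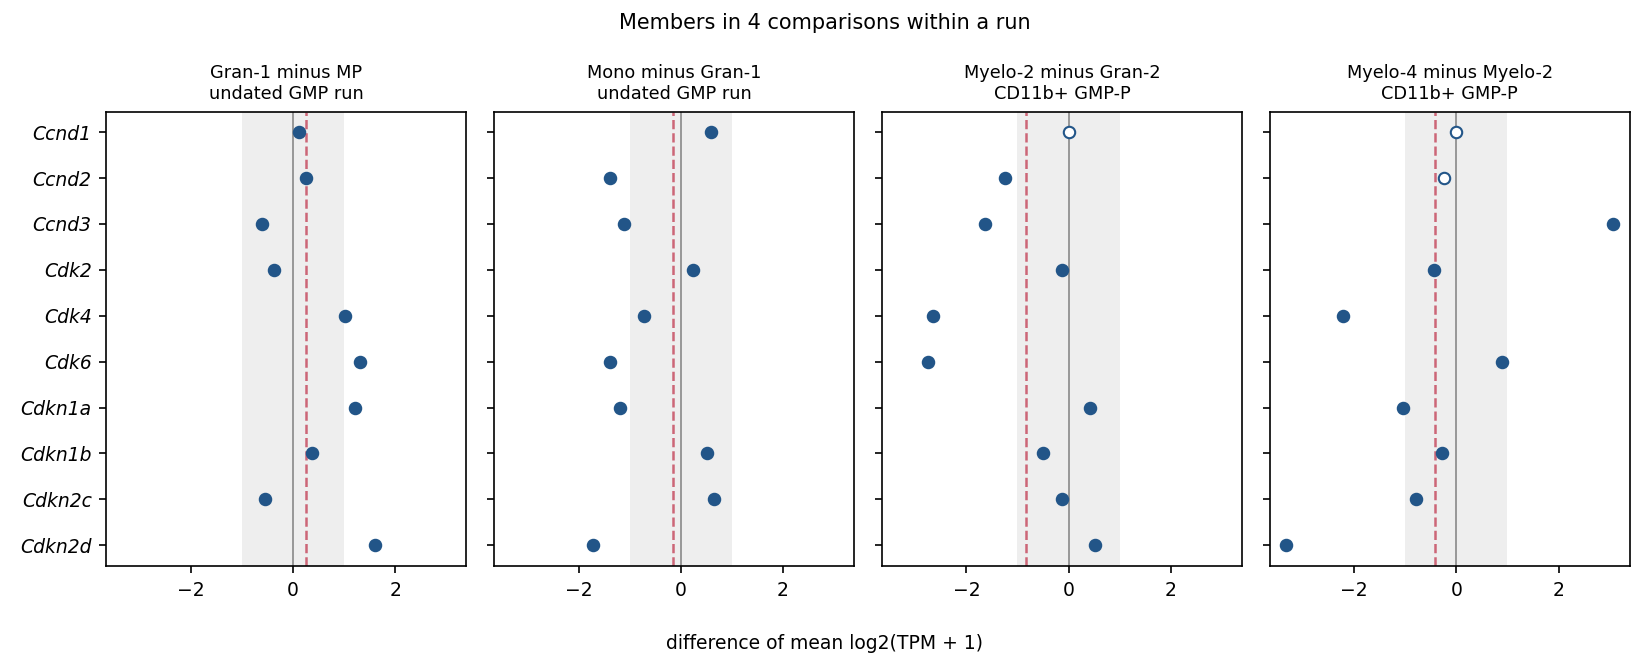
Points are differences of mean log2(TPM + 1) for each gene in 4 comparisons within a run; open points were not kept, the grey band spans -1 to 1, and the dashed line is the median of all kept genes. Cdk4 lies left of the dashed line in both CD11b+ GMP-P comparisons, and Ccnd3 lies at 3.07 in the last.

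From Myelo-2 (11 cells) to Myelo-4 (7 cells) in CD11b+ GMP-P, 3 of 8 kept genes were lower and 1 higher, where 30.7% of all kept genes were lower and 10.9% higher. Ccnd1 and Ccnd2 were not kept. Cdkn2d, at 0, 6.55 and 10.20 (lowest, median, highest) in Myelo-2, was at 0, 0 and 7.49 in Myelo-4, a difference of -3.33. Cdk4 was at 0 in 6 of the 7 Myelo-4 cells and at 2.54 in the other, a difference of -2.22. Cdkn1a differed by -1.05, with 3 cells in Myelo-2 and 0 in Myelo-4. Cdk6 (0.89), Cdk2 (-0.44), Cdkn2c (-0.78) and Cdkn1b (-0.28) stayed within 1. The 7 Myelo-4 cells stood between 2.58 and 5.96 for Cdkn1b, so none lacked it. The median difference was -0.61 over the 8 and -0.42 over all kept genes.

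Ccnd3 was higher by 3.07 in Myelo-4 of CD11b+ GMP-P. The 7 cells were at 3.28, 4.74, 5.20, 7.06, 9.71, 10.01 and 10.19, and the 11 Myelo-2 cells at 0, 4.01 and 8.63 (lowest, median, highest), so the groups overlapped. The direction turned with the run. The 7 late July Myelo-2 cells had Ccnd3 between 3.63 and 9.52 with a mean of 7.43 ± 2.03, and the 3 late July Myelo-4 cells had a mean of 4.53 ± 3.75, a difference of -2.90. Late July Myelo-4 has 3 cells, under the minimum of 5 cells per state set for calls, so its counts describe few cells. In those late July cells 6 of 7 kept genes were lower and 0 higher, where 38.1% of all kept genes were lower and 14.2% higher. Cdkn2d differed by -4.33 there, Cdk2 by -2.86, Cdkn2c by -2.49, Cdk4 by -1.99 and Cdkn1a by -1.96, while Cdkn1b stayed within 1 (0.35). With cells of all runs, the difference of Ccnd3 was 0.99, and 5 genes (Cdk2, Cdk4, Cdkn1a, Cdkn2c and Cdkn2d) were lower and 0 higher. In both runs Cdk4, Cdkn1a and Cdkn2d were lower in Myelo-4, and Ccnd3 was present in Myelo-4, in 7 of 7 and 2 of 3 cells, while Cdk4 was detected in 1 of 7 and 0 of 3.

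S phase transcripts were lowest in the state where Cdk4 was lowest. Their summed TPM per cell had a median of 3022 in Gran-2, 978 in Myelo-2 and 21.7 in Myelo-4 of CD11b+ GMP-P. In late July GMP the median was 2543 in Myelo-2 and 387 in Myelo-4. Within CD11b+ GMP-P, 15 of 19 kept list members were lower from Myelo-2 to Myelo-4 and 0 higher, against 30.7% and 10.9% of all kept genes. Of the G2 and M phase list 18 of 20 were lower there and 0 higher. In late July GMP, with only 3 Myelo-4 cells, the same counts lower were 13 of 19, with 1 higher, and 17 of 20. There 38.1% of all kept genes were lower. Mki67, a marker of cycling cells, was detected in 16 of 18 Myelo-2 cells (88.9%, 65.3 to 98.6) and 4 of 10 Myelo-4 cells (40%, 12.2 to 73.8). Cdk4 was thus not detected in 9 of 18 Myelo-2 cells, in a state where Mki67 was found in most. Cells without Cdk4 had fewer genes detected, with medians of 1965 against 2389 in CD11b+ GMP-P and 2508 against 3160.5 in late July GMP. Their median S phase sums were 909 TPM, against 2797 with Cdk4, in CD11b+ GMP-P, but 3410 against 1970 in late July GMP. An order of Cdk4 loss and the end of cycling was not tested.

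**Figure D5:**
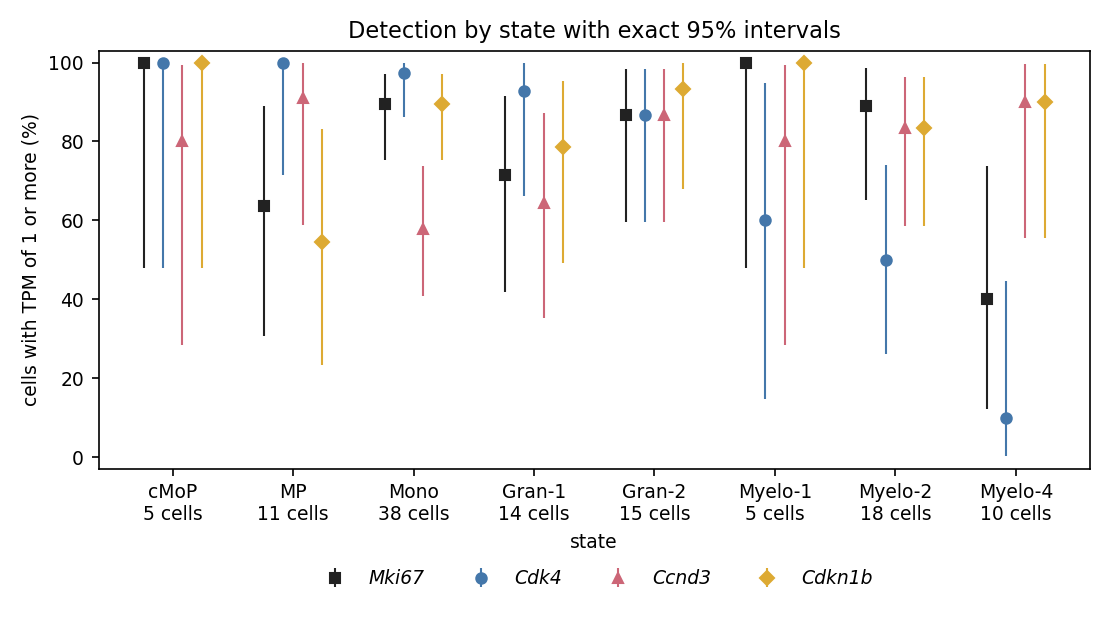
Markers give the percent of cells in each state with a TPM of 1 or more for Mki67, Cdk4, Ccnd3 and Cdkn1b, with exact 95% intervals as bars. Cdk4 is at 50% in Myelo-2 while Mki67 is at 88.9%, and in Myelo-4 Cdk4 is at 10% beside 90% for Ccnd3 and for Cdkn1b.

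Cell by cell, the 10 Mki67-positive Myelo-2 cells of CD11b+ GMP-P held Cdk4 in 5, Ccnd3 in 8, Cdk2 in 5, Cdkn1b in 9 and Cdkn2d in 6. The remaining cell had Cdkn1b and Cdk2 but not Cdk4, Ccnd3 or Cdkn2d. In this state an INK4 transcript was therefore found in cells that also had Mki67. The 6 cells with Cdkn2d had a median G2 and M phase sum of 4172 TPM, and the 5 without had 376 TPM. In late July Myelo-2 the same medians were 1734 TPM with Cdkn2d (4 cells) and 2340 TPM without (3 cells), so that contrast was not seen in the other run. Missed transcripts count as not detected in all such comparisons.

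In Mono of the undated run, where 28 of 32 cells had Mki67, Cdkn2d was found in 11 of the 28 and 1 of the other 4, and Cdk4 in 27 of 28 and 4 of 4. In MP, Cdk4 was found in all 7 cells with Mki67 and all 4 without, at mean levels of 8.03 and 8.18. Cdk4 was thus found alike in cells with and without Mki67 in these states.

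A D cyclin without Cdk4 or Cdk6 in the same cell was seen in 0 of 11 MP, 0 of 38 Mono, 0 of 14 Gran-1 and 0 of 15 Gran-2 cells. It was seen in 2 of 5 Myelo-1, 8 of 18 Myelo-2 and 7 of 10 Myelo-4 cells. Both runs contributed to the last counts, with 5 of 11 and 3 of 7 in Myelo-2 and 5 of 7 and 2 of 3 in Myelo-4, CD11b+ GMP-P being first. The single HSCP-1 cell, with 1985 genes detected, also had a D cyclin without either kinase. Median genes detected were 4455 in MP, 2448.5 in Myelo-2 and 1685.5 in Myelo-4, and their part in these counts was not tested. Ccnd2 and Ccnd3 were found together in 8 of 11 MP, 8 of 14 Gran-1 and 4 of 15 Gran-2 cells, and in 1 of 18 Myelo-2 cells. Of the 10 genes, the median cell had 6 detected in Mono, 5 in Gran-2, 4 in Myelo-2 and 2.5 in Myelo-4.

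Between the sorted populations, CD11b+ GMP-P (46 cells) minus GMP (75 cells), 2 of 10 genes were lower and 2 higher, where 28.8% of kept genes were lower and 2.3% higher. The median difference was -0.33 over the 10 and -0.56 over all kept genes. Cdk4 was at 0, 4.80 and 10.73 (lowest, median, highest) in CD11b+ GMP-P and at 0, 8.74 and 11.19 in GMP, a difference of -3.0. Ccnd2 differed by -2.0, Cdkn2d by 1.15 and Ccnd3 by 1.12, and all 4 genes had cells at 0 in both populations.

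Population and run name are tied, the populations differ in states, and the values depended on which GMP cells were used. Of the 62 undated cells 32 were Mono and 11 MP. Of the 46 CD11b+ GMP-P cells 13 were Gran-2, 11 Myelo-2, 7 Myelo-4 and 6 Mono. Of the 13 late July cells 7 were Myelo-2 and 3 Myelo-4. Within Mono, Cdk4 differed by 0.82 (CD11b+ GMP-P minus undated run). The part of the states in the population differences was not tested. Against the undated run alone, Cdk4 differed by -3.95, Ccnd2 by -2.44, Ccnd3 by 1.51 and Cdkn2d by 1.26. Against late July GMP, Cdk4 was 1.52 higher in CD11b+ GMP-P, Ccnd2 differed by 0.12 and Ccnd3 by -0.71, each the opposite sign, and Cdkn2d by 0.67. Median genes detected were 4521 in the undated run, 2570 in late July GMP and 2870 in CD11b+ GMP-P.

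A list of 41 other genes of the G1 and retinoblastoma pathway was counted in the same comparisons. From Gran-2 to Myelo-2 in CD11b+ GMP-P, 17 of 30 kept members were lower and 1 higher, with a median of -1.17, where 43.4% of all kept genes were lower and 5.29% higher with a median of -0.83. Trp53, which encodes the p53 regulator of Cdkn1a, had a mean level of 7.19 in Gran-2 and 1.94 in Myelo-2. Skp1a, a subunit of the SCF ubiquitin ligase, had 6.17 and 1.99. Myc, the E-box factor named above, had 3.77 and 0.18, and was detected in 9 of 13 Gran-2 and 1 of 11 Myelo-2 cells. In late July Myelo-2 the mean levels were 2.92 for Trp53, 4.14 for Skp1a and 2.67 for Myc, each above its mean in Myelo-2 of CD11b+ GMP-P. Lin37, a subunit of the DREAM repressor complex, had 4.0 and 1.10.

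From Myelo-2 to Myelo-4, 12 of 26 kept members of that list were lower and 3 higher (median -0.60), where 30.7% of all kept genes were lower and 10.9% higher (median -0.42). The largest differences were in Rbbp4, a histone chaperone that binds the retinoblastoma protein (-4.11), Ccne2, cyclin E2 and a partner of CDK2 (-2.30), Mdm2, the p53 ubiquitin ligase (-2.11), and Cks1b, a CDK-binding subunit (-2.11).

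In the undated run fewer list members, and fewer of all kept genes, were lower by 1 or more than in the CD11b+ GMP-P steps. Of 37 kept members, 3 were lower and 4 higher from MP to Gran-1, against 9% and 21.4% of all kept genes. In Mono, 3 were lower than in Gran-1 and 0 higher, against 16.5% and 7.62%. Ccne2 was 2.98 higher in Gran-1 than in MP, being detected in 9 of 9 and 6 of 11 cells, and 3.46 higher in Gran-1 than in Mono. Lin9 (-1.54) and Lin54 (-1.53), DREAM subunits, and Cdk7 (-1.47), a CDK-activating kinase, were lower in Gran-1 than in MP. Ccnh, the cyclin of CDK7, was lower in Mono than in Gran-1 by a difference of -2.29, and Tfdp1, the partner of E2F factors, by -1.06. Between the populations 10 of 36 members were lower and 0 higher, a share near the 28.8% of all kept genes. The largest differences were in Myc (-3.22), Skp1a (-3.16), Trp53 (-3.05) and Cks1b (-2.32). Against late July GMP alone 3 of 33 were lower and 3 higher, beside 5.95% and 12.7% of all kept genes, and Trp53 (0.91) and Cks1b (1.73) had the opposite sign.

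Likeness of pattern was measured as Pearson's r of state means over the 8 states, among 5760 genes, as a description whose points share runs and detected gene numbers. Ndufb8 (0.997), Rps6 (0.995) and Acin1 (0.992) were most like Cdk4, and Kdm6b (0.926), Msrb1 (0.899) and Rac2 (0.869) most like Ccnd3. For Ccnd2 they were Adi1 (0.990), Hsd17b1 (0.989) and Ndufaf4 (0.988), and for Cdkn2d Igsf6 (0.953), Hmgn2 (0.874) and Ctsl (0.867). The highest for Cdkn1b was Stard4 (0.885), for Cdk2 Fam50a (0.989) and for Cdk6 5830417I10Rik (0.985). Between members, the state means of Cdk4 had r = 0.84 with Ccnd2 and r = -0.75 with Ccnd3, and those of Ccnd2 and Ccnd3 r = -0.79.

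Markers of other cell types were checked in all cells, and part of them is given here. Cd3e, Cd3g, Klrb1c and Il7r of T and NK cells, Ppbp of megakaryocytes and Ebf1 of B cells were at 0 throughout, while Nkg7, the remaining gene of the T and NK list, was found in 116 of all cells. These zeros do not hold for whole lists. Megakaryocyte markers were found in 4 cells (up to 20.5 TPM). Erythroid markers were found in 4 cells (up to 2783 TPM, in a late July GMP cell). At least 1 B lineage marker was found in 39 cells (up to a summed 729 TPM), of which 33 were from the undated run and 6 from CD11b+ GMP-P. Basophil and mast cell markers were found in 41 cells (up to 27294 TPM), with 32 from the undated run, 8 from CD11b+ GMP-P and 1 from late July GMP. Eosinophil markers were found in 17 cells (up to 2294 TPM), 11 of them CD11b+ GMP-P. In those 11 cells only Ear2 was found, as Epx and Prg2 were at 0 in all CD11b+ GMP-P cells. Macrophage markers were found in 37 cells (up to 802 TPM), 19 of them CD11b+ GMP-P, where C1qa and C1qb were at 0. Only 3 of the 4 listed macrophage genes were among the measured genes, so those 19 cells rest on 1 gene. The list of monocyte markers had a median sum of 1113 TPM in the undated run, 7.21 in late July GMP and 1.89 in CD11b+ GMP-P, and so was highest in the undated run, as were Cdk4 and Ccnd2. The part of these lists in the results was not tested.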

How the data were processed

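Single-cell RNA was measured in 75 GMP and 46 CD11b+ GMP-P cells, each 1 deposited sample, prepared with SMARTer cDNA and Nextera XT libraries per the labels' protocols. Bowtie2, RSEM and mm9 are named in the submitters' processing notes, with no version or setting. The authors deposited log2 expression values of 23946 genes per cell, and back-transformed they sum to 999517 to 1001450 in each cell, as TPM does. Of all values 81.7% are 0. TPM keeps no read numbers, so the depth per cell is unknown, and a 0 can be a missed transcript. The authors also deposited a table of other, non-numeric values, the state names, with no account of their assignment in the labels. No 2 cells had identical values, and the highest correlation between cells was 0.563.

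Values were read with pandas 2.3.3 and numpy 2.4.6 under Python 3.11.15, and intervals were computed with scipy 1.17.1. Detection was a TPM of 1 or more and the pseudocount 1. Kept genes had detection in 10% or more of the cells of 1 of the groups, and a call was a difference of mean log2(TPM + 1) of 1 or more. On that scale differences of low genes come out too small. The calculation of differences was run on redrawn values with a known shift added, which checks the arithmetic and not missed transcripts or depth. A limit for a share of 0 is 3 cells of the total. Promoter windows came from a RefSeq table on GRCm38.p6, another build than mm9. Named genes are the 10 members, up to 4 pathway genes with the largest difference of 1 or more per comparison, and for each member found in at least 50% of the cells of a state the 3 genes most alike, not all of which are given. Mki67, Itgam, marker genes and single cells were named outside that rule. The members, lists and rules were chosen with earlier results of these data known, so counts over them are descriptions. Alternatives were a pseudocount of 10, the log2 ratio of mean TPM, upper quartile scaling, leaving out the 20 most abundant genes, leaving out cells under 1500 genes, no filter on low genes, other detection limits, the median of the family share per cell and, for the populations, each GMP run. Comparisons with cells of all runs, or with late July cells, were added after seeing the data. Calls were planned only for states of 5 or more cells, and the 3 late July Myelo-4 cells fall short of that. Genes were counted by symbol, and reads shared between gene copies cannot be separated here.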

Additional observations from a re-analysis of the deposited data

How the results depend on the processing

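Differences of single members stayed within 1 SD of single cells in 342 of 350 recomputations, 2 moved beyond it and 6 that had passed 1 reversed. The filter on low genes enters no difference, so the 50 recomputations without it were the same by construction. No cell under 1500 genes stood in Gran-1 minus MP, Mono minus Gran-1 or Myelo-2 minus Gran-2, so that setting changed nothing there. The SD over cells is wide, so staying within it is a weak criterion. By the log2 ratio of mean TPM, which weighs the highest cells most, the reversed differences were Cdk6 in Gran-1 minus MP (-0.62) and Ccnd2 in Mono minus Gran-1 (0.012). Against late July GMP alone they were Ccnd2 (0.12), Ccnd3 (-0.71) and Cdk4 (1.52) in CD11b+ GMP-P minus GMP. In late July cells Ccnd3 in Myelo-4 minus Myelo-2 was -2.90. Counts of members past a difference of 1 moved in 19 of 70 recomputations. By the ratio of mean TPM, Gran-1 minus MP had 3 members lower and 2 higher, Mono minus Gran-1 had 2 lower and 3 higher, Myelo-2 minus Gran-2 had 1 higher, Myelo-4 minus Myelo-2 had 3 higher and the populations had 4 lower. With a pseudocount of 10, which shrinks differences of low genes, Gran-1 minus MP had 1 higher, Mono minus Gran-1 had 1 lower, and the populations had 1 lower and 0 higher. For Myelo-4 minus Myelo-2, cells of all runs gave 5 lower and 0 higher, late July cells 6 lower and 0 higher, and leaving out the 20 most abundant genes, or the 2 Myelo-4 cells under 1500 detected genes, gave 2 higher each. For the populations, upper quartile scaling gave 1 higher and late July GMP alone 1 lower. The cause of these moves was not tested. Over all kept genes, the ratio of mean TPM shifted the split of lower against higher: to 20.9% and 26.7% in Gran-1 minus MP, 17.8% and 24.2% in Mono minus Gran-1, 52.5% and 15.2% in Myelo-2 minus Gran-2, 47.2% and 23.8% in Myelo-4 minus Myelo-2, and 28.6% and 12.5% between populations. Against late July GMP that split was 5.95% and 12.7%. Shares of cells and of family TPM moved in 32 of 132 recomputations, mostly where a median share per cell replaced the share of summed TPM, for which Cdkn2d in Mono went from 48.7% to 0% and in Myelo-2 from 84.1% to 67.5%. Without the filter on low genes member counts stayed as they were. No paired analysis was possible because the replicate numbers name cells and no result comes from a test. States of 5 to 18 cells, 1 sample each and unknown depth limit every value, and a transcript not detected is not shown to be absent.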
